A study of Mus musculus with 6 samples.

Results

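The genes for the proteins of the mitochondrial ribosome were examined in liver tumour cell lines of the mouse. They were taken by symbol, as the rows named Mrpl or Mrps followed by a number and at most 1 letter from a to d, which gave 78 of the 53465 genes in the table. Of these, 49 carried an Mrpl symbol, for the large subunit, and 29 an Mrps symbol, for the small subunit. Counting reads per gene in 6 cell lines gave values for all 78, and 77 of them passed the filter on low counts, among 11510 genes tested. The cell lines fell into 2 groups of 3 by genotype, Myc_Utx (lines 2A, 2B and 2D) and Myc_p53 (lines 1, 2 and 3), all on the C57BL/6 background. Utx is another name of Kdm6a, an H3K27 demethylase, which was disrupted with Cas9 in the first group, and p53 was the Cas9 target in the second. Tumours were raised by injecting plasmid DNA into the tail vein of female mice 8 weeks old. Every line of both groups therefore also carries the Myc transposon, driven by the EF1a promoter, and the comparison is between the deficiencies and not with unedited cells. Each line was grown from a tumour, and the study calls the lines independent. The mouse of each line is not given in the sources used here. Taken as separate tumours, 3 lines show the spread between tumours of a genotype and not that within a tumour. The study's methods for RNA sequencing name another guide target than the labels do, and the groups here are those of the labels.

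Mitochondria keep a ribosome of their own, which makes the few proteins that mitochondrial DNA encodes, all of them membrane subunits of the respiratory chain and of ATP synthase. Its ribosomal RNAs come from mitochondrial DNA, whereas its proteins are encoded in the nucleus, made in the cytosol and imported. The large subunit holds the centre that joins amino acids and the tunnel through which the new chain leaves, and the small subunit reads the messenger RNA. Many of the proteins have counterparts in bacterial ribosomes, and the others are found only in mitochondria.

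Library totals ran from 4656103 to 6937497 counts. Kdm6a, the targeted gene, had 199, 244 and 220 counts in lines 2A, 2B and 2D and 440, 348 and 298 in Myc_p53 lines 1, 2 and 3. Its log2 fold change was -0.39 (SE 0.22, adjusted p = 0.243 from the quasi-likelihood test of edgeR), which does not test the labels, since small edits of a coding sequence need not lower the mRNA. The lines are labelled as liver cells, but the liver product albumin (Alb) had only 4 to 26 counts in any of them. The 8 hepatocyte markers together stood at 8.58 to 47.4 CPM (counts scaled to a common library size by TMM) in Myc_Utx and 24.1 to 43.9 in Myc_p53 lines. For the 5 cholangiocyte markers the sums were 510 to 1441 and 153 to 1462 CPM, most of it Spp1, and without Spp1 61.7 to 90.0 and 82.1 to 443. Of these 5, Krt7 (1, 0 and 2 counts against 100, 3 and 459) and Krt19 (234, 25 and 129 against 2088, 325 and 2468) had more counts in every Myc_p53 line. The sums were, for the 6 markers of fibroblasts and stellate cells 120 to 367 and 25.4 to 424, and for the 5 endothelial markers 0.223 to 0.749 and 0.371 to 1.42. Hnf4a of the hepatocyte list had 3, 3 and 0 counts in Myc_Utx against 64, 8 and 47 in Myc_p53 lines. Dcn of the fibroblast list had 1, 3 and 0 against 86, 9 and 109. Apoa1 of the hepatocyte list had the reverse order at few counts, 3, 5 and 3 against 0, 1 and 2. Pdgfrb of the fibroblast list leaned the same way as Apoa1 but with overlap, at 874, 1454 and 517 counts against 33, 953 and 702. Macrophage markers moved with the groups: 6 of 8 had more counts in every Myc_p53 line than in any Myc_Utx line, with sums of 37.6 to 56.0 CPM in Myc_Utx and 55.2 to 123 in Myc_p53. Cd14 went the other way, with 53.3, 34.3 and 32.3 CPM in Myc_Utx and 19.3, 18.9 and 21.7 in Myc_p53 lines (log2 fold change 1.0, SE 0.23, adjusted p = 0.0399 in edgeR). Without Cd14 the sums were 2.79 to 5.99 and 36.3 to 101 CPM. The macrophage receptor Csf1r had 0, 1 and 0 counts against 259, 39 and 243, while Ptprc, found on all white blood cells, had at most 3 in any line. The part of these marker genes in the differences below was not tested, and in such bulk samples fewer cells of a type and less RNA per cell cannot be told apart.

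Mitochondrial ribosomal protein genes were higher in Myc_Utx than in Myc_p53 lines, across both subunits and by a modest amount. Of the 77 tested, 71 had a log2 fold change above 0, against 49.2% of all genes tested, and the median was 0.46, against -0.01 for all genes. Log2 fold changes ran from -0.24 to 1.35. At an adjusted p under 0.05 in edgeR, adjusted over all genes tested, 17 members were higher, which is 22.1% of them, against 6.99% of all genes. None was lower at that threshold or at an unadjusted p under 0.05, or with DESeq2, whereas 7.69% of all genes were lower. In 50 members every Myc_Utx line lay above every Myc_p53 line, which 21.1% of all genes did, and the opposite order was seen in 0 members and 20.9% of genes. An unadjusted p under 0.05 was reached by 44 members in the upward direction, against 16.6% of genes. Only 4 members passed the adjusted threshold with more than a 2-fold change (2.32% of genes).

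**Figure D1:**
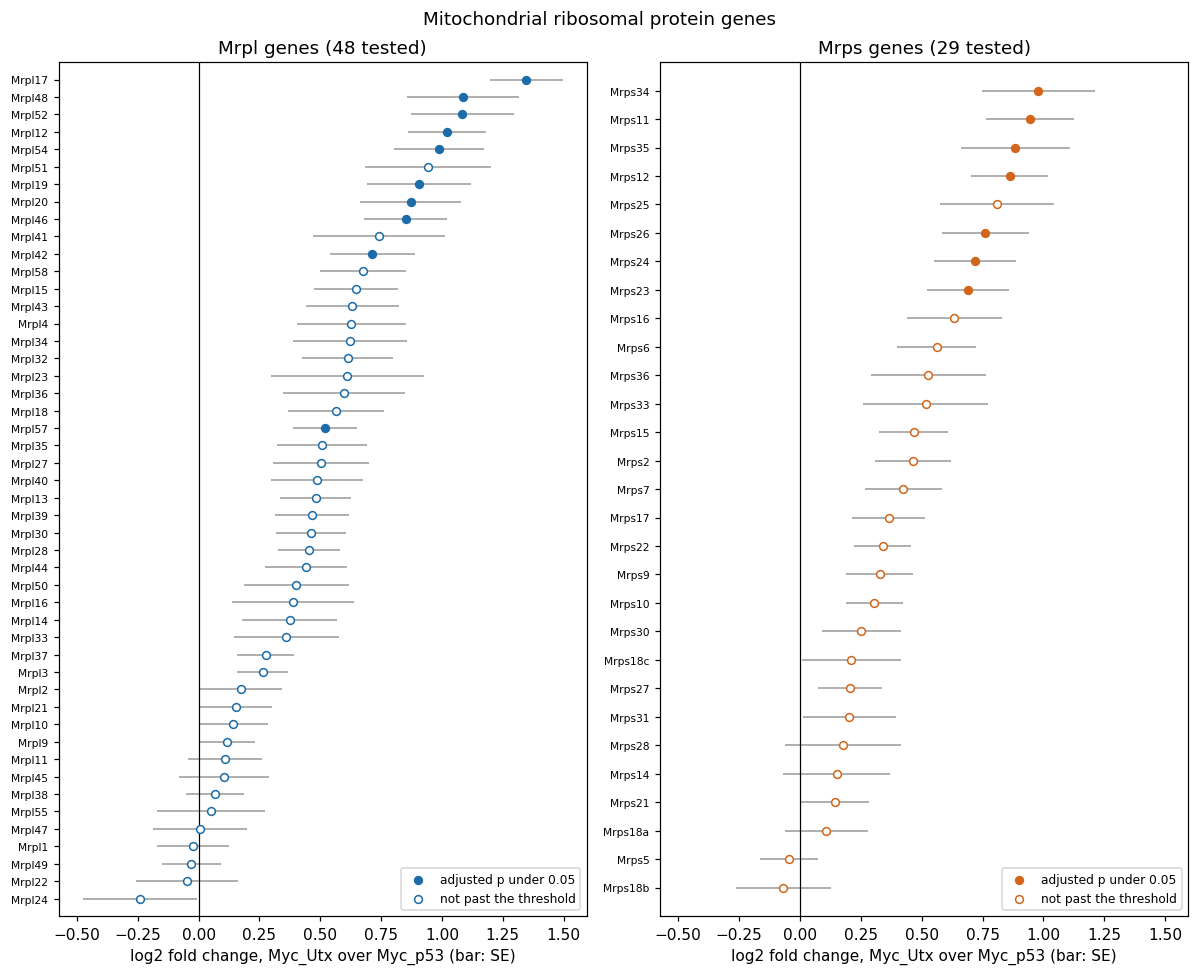
Log2 fold change of each tested Mrpl gene (left) and Mrps gene (right), Myc_Utx over Myc_p53, with its standard error. Filled points passed an adjusted p of 0.05 in edgeR (10 Mrpl and 7 Mrps genes), and most points lie to the right of 0, from -0.24 (Mrpl24) to 1.35 (Mrpl17).

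The number of calls rested on having all 6 lines. With line 2A left out 0 members passed, with 2B or 2D left out 1 each, and with Myc_p53 line 1, 2 or 3 left out 9, 14 and 0. The share of all genes that were higher at the same threshold was 0.0249%, 0.357%, 0.355%, 4.08%, 7.01% and 0.538% in the same order, against 6.99% with all lines. The direction did not depend on any line: between 68 and 75 members were above 0 in these 6 fits, the median stayed between 0.39 and 0.55, and 28 to 42 members had an unadjusted p under 0.05.

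The same difference stood in the raw counts. Mitochondrial ribosomal protein genes took 0.432%, 0.456% and 0.515% of all counts in lines 2A, 2B and 2D, and 0.378%, 0.354% and 0.335% in Myc_p53 lines 1, 2 and 3. The groups did not overlap, with means of 0.468% ± 0.0425 and 0.356% ± 0.0212 (SD, n = 3 each; two-sided exact permutation test, p = 0.1, the smallest that 3 lines against 3 allow). Line 2D was the highest and Myc_p53 line 3 the lowest. The mean share of the Mrpl genes was 0.317% in Myc_Utx and 0.238% in Myc_p53 lines, and that of the Mrps genes 0.151% and 0.118%, both without overlap between the groups and both at that same exact p of 0.1.

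No shift between the subunits was detectable beyond the spread between lines. Summed Mrpl counts were 2.04, 2.06 and 2.19 times the summed Mrps counts in lines 2A, 2B and 2D, and 2.09, 2.02 and 1.93 times in Myc_p53 lines 1, 2 and 3. The ratios overlapped between the groups (means 2.10 ± 0.0817 and 2.01 ± 0.0770; exact permutation test, two-sided p = 0.4). The median log2 fold change was 0.48 for the 48 Mrpl genes tested, of which 44 were above 0 and 10 passed the threshold. It was 0.42 for the 29 Mrps genes, with 27 above 0 and 7 past the threshold.

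**Figure D2:**
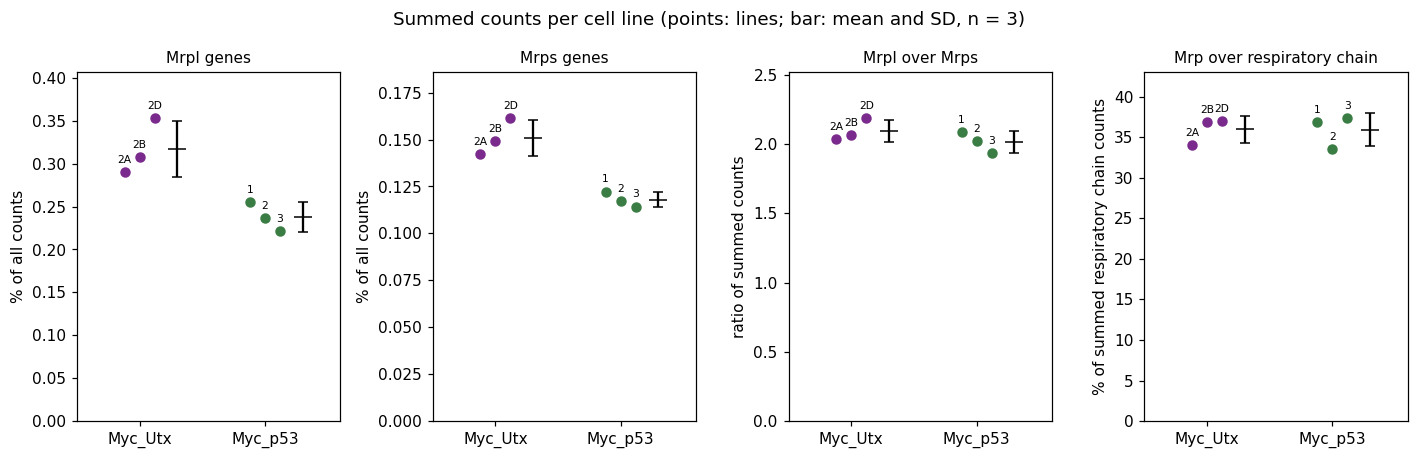
Summed counts of each cell line, as a share of all counts for Mrpl genes and for Mrps genes, as the ratio of Mrpl to Mrps counts, and as a percentage of the summed counts of 75 nuclear respiratory chain genes, those of ATP synthase included. Points are cell lines, and bars give the mean and SD of 3 lines; the groups are apart in the shares (0.317% against 0.238% for Mrpl genes) and overlap in both ratios.

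The largest increase was that of Mrpl17 (ENSMUSG00000030879, chromosome 7 of GRCm38, 105803206 to 105811099), a large subunit protein with a bacterial counterpart. It stood at 126, 106 and 145 CPM in lines 2A, 2B and 2D, and at 51.7, 46.5 and 50.1 in Myc_p53 lines 1, 2 and 3. Every Myc_Utx line was above 100 CPM and no Myc_p53 line was. The log2 fold change was 1.35 (SE 0.15, adjusted p = 0.0128 in edgeR), or 2.54-fold, and with a line left out it stayed between 1.25 and 1.47, with adjusted p of 0.0163 to 0.0614.

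Mrpl12 forms the flexible stalk of the large subunit that recruits translation factors (ENSMUSG00000039640, chromosome 11, 120484613 to 120489065). Its level was 173, 202 and 224 CPM in lines 2A, 2B and 2D against 110, 103 and 82.1 in the Myc_p53 lines. The groups were well apart, with a log2 fold change of 1.02 (SE 0.16, adjusted p = 0.0185 in edgeR). Mrpl52, a large subunit protein found only in mitochondria, had 62.4, 62.7 and 70.2 CPM against 27.2, 40.2 and 24.8. Its Myc_Utx values lay close together and Myc_p53 line 2 was the nearest to them (log2 fold change 1.08, SE 0.21, adjusted p = 0.0274), and with offsets for transcript length its adjusted p was 0.0507.

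Mrpl48, likewise restricted to mitochondria, had 29.5, 33.1 and 38.3 CPM against 20.4, 13.5 and 13.6 (log2 fold change 1.09, SE 0.23, adjusted p = 0.0320 in edgeR). Mrpl54 had 51.5, 45.5 and 67.3 CPM against 27.2, 29.1 and 26.5 (0.99, SE 0.18, adjusted p = 0.0247), with line 2D above the other two and little spread in the Myc_p53 group. For Mrpl51 the values were 54.5, 78.8 and 77.9 CPM against 44.7, 25.6 and 39.5. The groups of Mrpl51 were apart, yet its log2 fold change of 0.94 (SE 0.26) did not pass the threshold (adjusted p = 0.0559 in edgeR). The other Mrpl genes past it were Mrpl19 (0.91), Mrpl20 (0.87), Mrpl46 (0.85), Mrpl42 (0.71) and Mrpl57 (0.52), which had the smallest increase of the 17. Mrpl19 shares 36% of its exon bases with Gcfc2 on the other strand.

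In the small subunit, Mrps34 and Mrps11 led. Mrps11, which sits on the platform of the small subunit, had 30.5, 29.6 and 35.0 CPM in lines 2A, 2B and 2D against 14.1, 16.7 and 18.5 in the Myc_p53 lines (log2 fold change 0.95, SE 0.18, adjusted p = 0.0259 in edgeR). Mrps34, found only in mitochondria, had 20.7, 25.5 and 31.2 CPM against 14.7, 13.7 and 10.8 (0.98, SE 0.23, adjusted p = 0.0415). Both pairs of groups were apart. The value of Mrps34 is uncertain, because 77.8% of its exon bases are shared with Nme3 on the same strand and Mapk8ip3 on the other, and Nme3 had 0 counts in every line. Its call was also lost with length offsets (0.81, adjusted p = 0.0626), with no filter on low counts (1.01, adjusted p = 0.0531) and with any of the 6 lines left out.

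The other small subunit genes past the threshold were Mrps35 (0.88), Mrps12 (0.86), Mrps26 (0.76), Mrps24 (0.72) and Mrps23 (0.69). Mrps12 lies at the decoding centre, where codons of the messenger are matched to transfer RNAs. Mrps35 has the longest transcript of all members, 8631 bases, and stood at 62.2, 68.5 and 71.0 CPM against 46.8, 26.3 and 36.1. Its groups were apart, with an adjusted p of 0.0478 in edgeR that became 0.0502 with the size factors of DESeq2 and 0.0607 with total counts only.

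**Figure D3:**
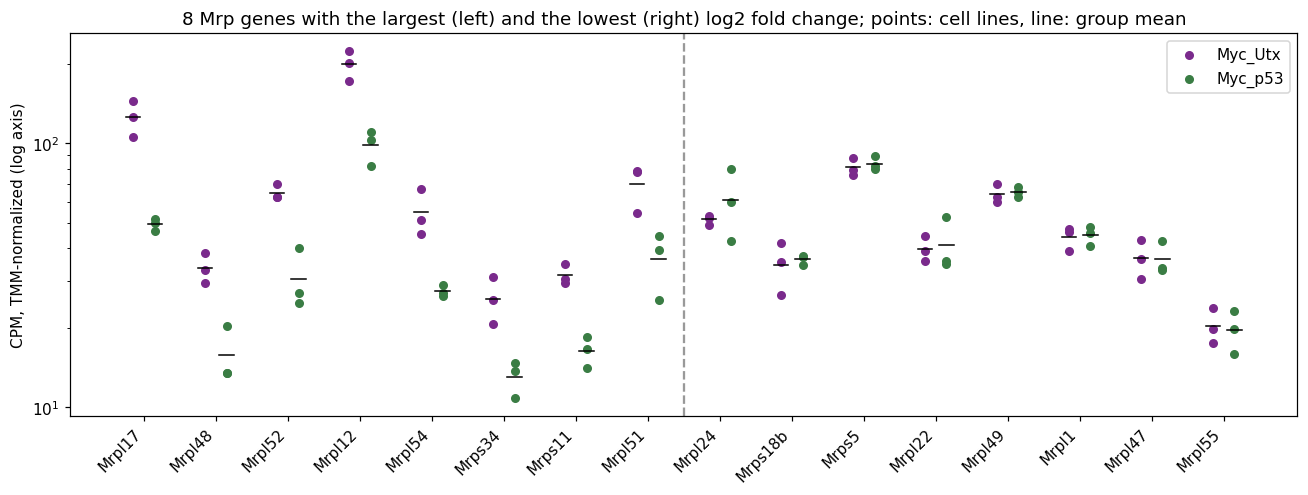
TMM-scaled CPM, on a log axis, of the 8 members with the largest (left of the dashed line) and the 8 with the lowest log2 fold change (right). Points are cell lines and short lines are group means; on the left every Myc_Utx line lies above every Myc_p53 line, as for Mrpl17 (lowest Myc_Utx value 106, highest Myc_p53 value 51.7), and on the right the groups overlap.

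Some members showed no such difference. Mrpl24 (ENSMUSG00000019710, chromosome 3, 87919506 to 87923672) had the lowest log2 fold change, -0.24 (SE 0.23, adjusted p = 0.498 in edgeR). Its levels were 52.3, 49.1 and 53.2 CPM in lines 2A, 2B and 2D and 60.2, 79.9 and 42.8 in Myc_p53 lines 1, 2 and 3, so that the Myc_p53 lines spanned the Myc_Utx ones. Without Myc_p53 line 2 its log2 fold change was 0.0022. Of its exon bases, 26.3% are shared with Rrnad1 on the other strand. Mrps5, a small subunit protein with a bacterial counterpart, had 79.4, 75.8 and 88.2 CPM against 81.7, 89.9 and 79.9 (-0.05, SE 0.12), with full overlap.

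Mrpl22, whose bacterial counterpart lines the exit tunnel, had 35.7, 44.8 and 39.0 CPM against 34.9, 35.8 and 52.6 (-0.05, SE 0.21). Mrpl1, of the stalk near which spent transfer RNAs leave, had 39.1, 46.1 and 47.4 CPM against 48.4, 40.8 and 45.6 (-0.02, SE 0.15). Mrps18b had 26.7, 41.8 and 35.4 CPM against 37.3, 34.5 and 37.2 (-0.07, SE 0.19). In these 3 genes the lowest value of either group lay below the highest value of the other. Mrps18b shares 30.5% of its exon bases with Gm16279 on the other strand.

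Mrpl49 had 60.0, 62.4 and 69.9 CPM against 68.6, 65.2 and 62.5 (-0.03, SE 0.12), which makes it 1 of the 6 members below 0 with Mrpl24, Mrps18b, Mrps5, Mrpl22 and Mrpl1. Mrpl47 had 30.5, 36.5 and 43.2 CPM against 33.8, 42.8 and 33.2 (0.01, SE 0.19). Mrpl55 had 19.7, 17.6 and 23.8 against 23.2, 19.8 and 16.0 (0.05, SE 0.22). None of these 8 genes passed the threshold, with adjusted p of 0.498 to 0.987 in edgeR, and the sign of each depended on the lines or the scaling used.

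Mrpl53 (ENSMUSG00000030037, chromosome 6, 83109040 to 83109939) was the member that failed the filter, with 0 counts in all 6 lines. Of its exon bases, 88.0% are shared with the same-strand gene Gm42688, which had 2 to 11 counts. How reads on shared bases were assigned is not given in the sources used here, so the 0 of Mrpl53 is no measure of its expression. Of the 60 members with under 10% of their exon bases shared, 56 were above 0. Among these 60, 12 passed the threshold (20%, against 6.99% of all genes), with a median log2 fold change of 0.46.

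Symbols and places in the ribosome differ for 3 members. Mrps18a and Mrps30 carry small subunit symbols but sit in the large subunit, and Mrps36 is now known as a component of the oxoglutarate dehydrogenase complex and not of the ribosome. Mrps18a had 38.1, 46.1 and 36.5 CPM against 41.2, 32.1 and 38.6, with overlap and a log2 fold change of 0.11 (SE 0.17). Mrps30 had 57.8, 65.7 and 71.5 CPM against 63.4, 47.3 and 53.2 (0.25, SE 0.16), also with overlap. Mrps36 was 18.4, 17.6 and 18.7 CPM in Myc_Utx and 15.01, 13.5 and 9.41 in Myc_p53 lines, without overlap but short of the threshold (0.53, SE 0.24, adjusted p = 0.167 in edgeR).

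Grouping by place in the ribosome left the picture as it was. The 50 tested genes of the large subunit then had a median log2 fold change of 0.47, with 46 above 0 and 10 past the threshold, and the 26 of the small subunit 0.44, with 24 above 0 and 7 past it. Genes with a bacterial counterpart and genes of mitochondria alone were also both higher. Of the 46 with a counterpart 42 were above 0 and 7 passed, with a median of 0.44. Of the 30 without one 28 were above 0 and 10 passed, with a median of 0.52. The difference between these classes was not tested.

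Levels per kilobase of the deposited transcript length differed widely between members. Averaged over the 6 lines, the highest were Mrpl12 (97.2 CPM per kilobase), Mrpl34 (73.0), Mrpl28 (61.4), Mrpl2 (55.5) and Mrpl18 (51.8). The lowest tested were Mrpl23 (1.33), Mrpl48 (3.03), Mrps35 (6.01), Mrps10 (6.04) and Mrps25 (6.09). The deposited length is the union of all exons of a gene, which it equals for 71 of the 78 members in GENCODE M21, and not the length of a single mRNA. Per kilobase of the principal isoform Mrps10 moved from rank 74 to rank 21, with 47.9 CPM per kilobase, while Mrpl12 moved from rank 1 to rank 4 and Mrpl23 remained among the lowest at rank 75.

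Most of these abundant and scarce members were higher in Myc_Utx lines without passing the threshold. Mrpl34, which also has the shortest transcript (607 bases), had 42.9, 50.7 and 67.7 CPM against 43.1, 30.4 and 31.1, with overlap by a small margin (log2 fold change 0.62, SE 0.23, adjusted p = 0.115 in edgeR). Mrpl28 had 88.0, 84.5 and 99.1 CPM against 68.0, 70.6 and 59.6, without overlap (0.45, SE 0.13, adjusted p = 0.0602). Mrpl2, at the centre where peptide bonds are made, had 66.2, 67.2 and 73.3 CPM against 63.7, 71.0 and 48.5 (0.18, SE 0.17), with overlap.

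Mrpl18, a large subunit protein with a bacterial counterpart, had 72.2, 80.5 and 106 CPM against 68.9, 53.9 and 52.3 (0.56, SE 0.20, adjusted p = 0.0975 in edgeR). Mrpl23 had only 6.38, 6.93 and 10.2 CPM against 6.01, 4.08 and 5.28 (0.61, SE 0.32, adjusted p = 0.216). In both the groups were apart by a narrow margin, with line 2D the highest.

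Mrps10, of the head of the small subunit, had 52.5, 54.9 and 54.6 CPM against 43.5, 44.9 and 42.6. Its groups were tight and apart, and the difference was small (0.31, SE 0.12, adjusted p = 0.124 in edgeR). Mrps25 had 42.5, 49.2 and 61.2 CPM against 31.8, 21.5 and 33.9 (0.81, SE 0.23, adjusted p = 0.0630), also apart, and 69.8% of its exon bases are shared with Nr2c2 on the other strand.

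Of the 77 members, 59 had their highest level in line 2D, which is 76.6% of them, against 21.1% of the other genes tested. Line 2B was highest for 11 and line 2A for 1, and the Myc_p53 lines for 2, 3 and 1. The lowest level was in Myc_p53 line 3 for 37 members (48.1%, against 16.1% of other genes), in line 2 for 21 and in line 1 for 13. The median coefficient of variation of a member was 12.7% within Myc_Utx and 14.3% within Myc_p53. For the 8302 other genes in the same range of mean CPM it was 13.3% and 18.9%.

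Levels also differed by chromosome between lines, for genes of every kind. On chromosome 7 the 823 genes other than members had a median of 0.42 on the log2 scale. Of them, 24.3% were higher at the adjusted threshold. All 6 members tested on chromosome 7 were above 0, with a median of 0.90, and 5 of them passed, Mrpl17, Mrpl48, Mrps11, Mrps12 and Mrpl46. On chromosome 6, 523 other genes stood 0.39 below the mean of the lines (median, log2 scale) in Myc_p53 line 2 and 0.07 to 0.15 above it in the other 5 lines. The 6 members tested there had a median log2 fold change of 0.85, against 0.11 for the other genes, and Mrpl19 and Mrps35 passed. Of the other genes on chromosome 6, 6.5% were higher at that threshold.

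Off chromosomes 6 and 7, 59 of 65 members were above 0 and 10 passed (15.4%), with a median of 0.40. Among these 10 were both members tested on chromosome 10, Mrpl42 and Mrpl54, where the other genes had a median of 0.21 and 14.7% of them were higher. Off chromosomes 6, 7 and 10, 57 of 63 were above 0 and 8 passed (12.7%), with a median of 0.39. Beside both shares stands 6.99% of all genes tested. That share counts every chromosome, with 7 and 10 and their higher shares included, and was not recomputed without them. When each line was offset by the median deviation of the other genes on each chromosome, 76 of 77 members were above 0, the exception being Mrps18b, and 23 passed (background 6.95%), of which 12 were among the 17. The median was then 0.44. On chromosome 7, Mrpl17 still passed, at 0.93 (adjusted p = 0.0186 in edgeR). Mrpl48 (0.68, adjusted p = 0.0712), Mrps11 (0.52, adjusted p = 0.0995), Mrps12 (0.44, adjusted p = 0.0820) and Mrpl46 (0.43, adjusted p = 0.111) no longer did in edgeR, nor did Mrpl42 on chromosome 10 (adjusted p = 0.111). Mrpl51 (0.84, adjusted p = 0.0354), Mrps25 (0.70, adjusted p = 0.0466) and Mrpl28 (0.46, adjusted p = 0.0452) passed with these offsets.

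**Figure D4:**
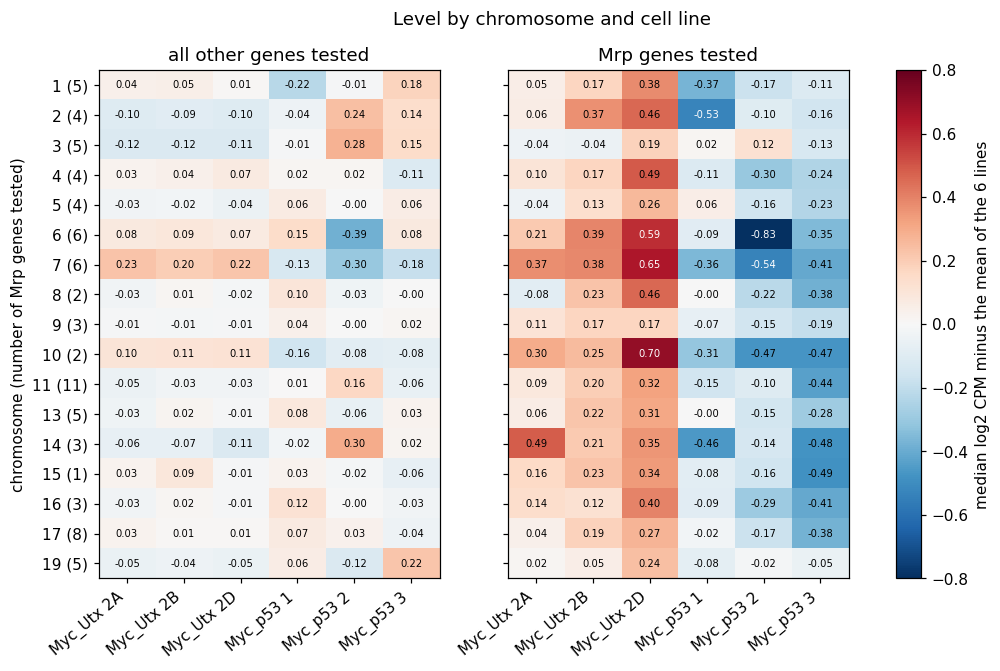
Median deviation of log2 CPM from the mean of the 6 lines, by chromosome (rows, with the number of members tested) and cell line (columns), for all other genes tested (left) and for the mitochondrial ribosomal protein genes (right). Chromosome 7 is higher in all 3 Myc_Utx lines in both panels (other genes 0.23, 0.20 and 0.22), chromosome 6 is low in Myc_p53 line 2 (-0.39 for other genes, -0.83 for members), and line 2D is above 0 for the members of every chromosome shown.

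The difference was smaller once transcript length was allowed for. Across all 11510 genes, log2 fold change fell with the deposited length (Spearman's rho -0.25), and the members are short, with a median of 2255 bases against 4441. Among the 77 members themselves rho was 0.0012. The 39 at or under the median length had a median log2 fold change of 0.49 with 10 calls, and the 38 above it 0.46 with 7. Genes are not independent replicates, and the points share the same libraries, so these are descriptions.

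With per-line offsets that removed the length trend of all genes, 64 of 77 members were above 0, the median was 0.35 and 10 passed, against 6% of all genes. With the principal isoform length in place of the deposited one, 63 were above 0, the median was 0.26 and 9 passed, against 5.59% of all genes. These offsets also gave the members a trend that they did not have before, a rho of 0.43 with the deposited length. Short members were lowered and long ones raised by them. Mrpl17, with 7605 bases, went from 1.35 to 1.53 (adjusted p = 0.0127 in edgeR), Mrps35 from 0.88 to 1.09 (adjusted p = 0.0369) and Mrpl12, with 1532 bases, from 1.02 to 0.79 (adjusted p = 0.0265). Mrpl34 went from 0.62 to 0.30.

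**Figure D5:**
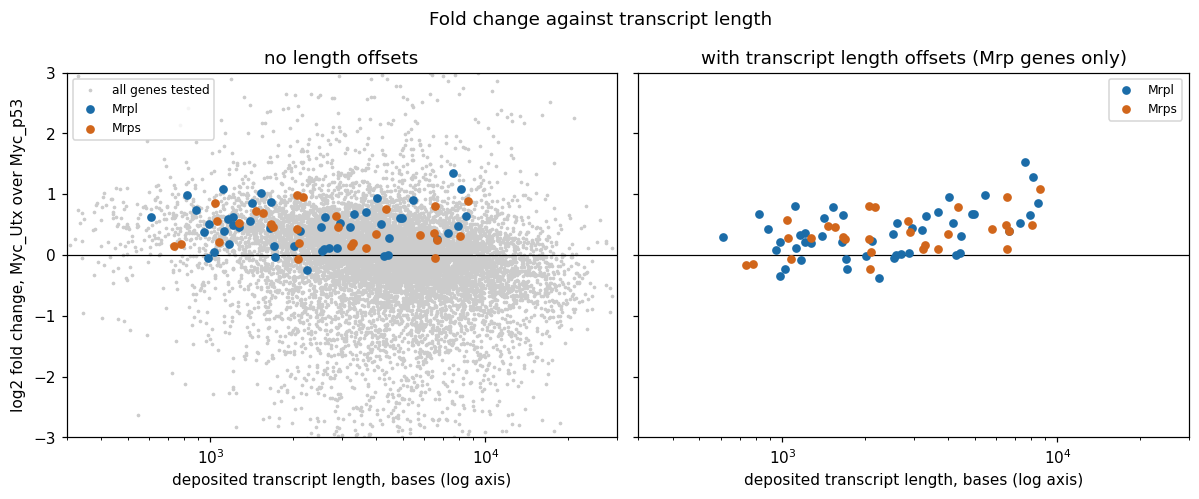
Log2 fold change against the deposited transcript length on a log axis, without (left) and with (right) offsets for length in each line. Grey points are all genes tested (left only, 410 lie outside the axes) and coloured points are members; the members lie flat along the axis on the left (rho 0.0012) and climb with length on the right (rho 0.43).

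Few other genes of mitochondrial translation and mitochondrial DNA passed the threshold. Of 78 genes listed in 6 groups, 76 were found and tested, and 58 were above 0, against 49.2% of all genes. The 76 include 18 genes of mitochondrial DNA transcription and mRNA stability, which are not translation genes. At the adjusted threshold in edgeR 3 were higher (3.95%), a smaller share than the 6.99% of all genes. Lower genes numbered 0 in edgeR, at an unadjusted p under 0.05 as well, and with DESeq2. The median of the 76 was 0.19. Tufm, the elongation factor that brings charged transfer RNAs to the mitochondrial ribosome, had 153, 159 and 157 CPM in lines 2A, 2B and 2D against 89.6, 76.6 and 72.3 in Myc_p53 lines 1, 2 and 3. Its exchange factor Tsfm had 48.1, 52.4 and 58.6 CPM against 26.4, 28.9 and 25.5. Both were apart by a wide margin, each with a log2 fold change of 0.98 (SE 0.12, adjusted p = 0.0141 for Tufm and SE 0.15, adjusted p = 0.0175 for Tsfm, in edgeR). Tufm lies on chromosome 7, and with the chromosome offsets it was at 0.56 (adjusted p = 0.0254 in edgeR).

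Rpusd3, a pseudouridine synthase of mitochondria, was scarce, with 4.59, 4.12 and 4.45 CPM against 1.58, 2.22 and 2.00. Its log2 fold change was 1.18 (SE 0.30, adjusted p = 0.0481 in edgeR), and of the settings run with all 6 lines only that of at least 10 counts in every line kept the call. With any line left out it was lost, with adjusted p of 0.0680 to 0.154. Together, 12 translation factors had a median of 0.22 with 2 calls, 24 assembly and RNA modification genes 0.19 with 1, 17 mitochondrial aminoacyl-tRNA synthetases 0.28 with 0 and 18 genes of mitochondrial transcription and mRNA stability 0.04 with 0. With the transcript length offsets 4 of the 76 passed (background 6%), Tufm, Tsfm, the synthetase gene Nars2 and the mitochondrial DNA polymerase gene Polg. Nars2, on chromosome 7, stood at 0.89 (adjusted p = 0.0565), at 1.04 with length offsets (adjusted p = 0.0498) and at 0.48 with chromosome offsets (adjusted p = 0.173), all in edgeR. Polg, also on chromosome 7, had an adjusted p of 0.0487 with length offsets and 0.704 with chromosome offsets in edgeR. Of the regulators in the transcription list, Esrra stood at 0.94 (adjusted p = 0.0866), and at 1.07 with chromosome offsets (adjusted p = 0.0484), in edgeR. Nrf1 stood at 0.28 (adjusted p = 0.223) and Ppargc1a at -1.37 (SE 1.24, adjusted p = 0.467), in edgeR. Ppargc1a had 2, 76 and 4 counts in Myc_Utx against 115, 101 and 26 in Myc_p53 lines. Also below 0 were Pprc1 (-0.27), Ppargc1b (-0.22) and Gabpa (-0.11), with adjusted p of 0.446 to 0.705 in edgeR. Nars2, Polg and these regulators were named after their values were seen.

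Ribosome proteins whose symbols lie outside the Mrpl and Mrps series did not pass. Gadd45gip1, of the large subunit, had 55.0, 51.3 and 77.7 CPM against 38.2, 43.4 and 42.6, with the groups apart (log2 fold change 0.57, SE 0.19, adjusted p = 0.0941 in edgeR). Aurkaip1, of the small subunit, had 73.0, 74.0 and 88.2 CPM against 59.3, 63.0 and 49.3, also apart (0.45, SE 0.15, adjusted p = 0.0876). The other 3 small subunit genes overlapped between groups. They were the GTP-binding protein Dap3, with 126, 121 and 133 CPM against 127, 161 and 119 (-0.10, SE 0.14), Chchd1, with 57.6, 53.4 and 64.1 against 53.4, 58.0 and 49.6 (0.12, SE 0.14), and Ptcd3, with 159, 178 and 184 against 185, 110 and 175 (0.15, SE 0.21).

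The mitochondrial ribosomal RNAs, the respiratory chain and the cytosolic ribosome were set beside these genes. The small mitochondrial rRNA mt-Rnr1 had 587, 672 and 865 CPM against 498, 675 and 450 (0.39, SE 0.21, adjusted p = 0.234 in edgeR), and the large one mt-Rnr2 had 3287, 4895 and 3896 against 3881, 2864 and 2663 (0.36, SE 0.21, adjusted p = 0.266). Both overlapped between the groups. The mitochondrial mRNAs mt-Co2, mt-Co3 and mt-Atp6 had at most 2 counts in any line, beside 15451 to 26145 for mt-Rnr2. Why these mRNAs were hardly counted was not tested, and it leaves the rRNA values uncertain. Summed counts of the members were 34.1%, 36.9% and 37.0% of those of 75 nuclear respiratory chain genes in lines 2A, 2B and 2D, and 36.9%, 33.6% and 37.4% in the Myc_p53 lines (difference of means 0.0558 percentage points; exact permutation test, two-sided p = 0.9). Against 83 cytosolic ribosomal protein genes they were 7.37%, 8.92% and 7.97% in Myc_Utx and 9.05%, 8.18% and 9.67% in Myc_p53 lines (exact permutation test, two-sided p = 0.2). The groups overlapped in both ratios, in which any scaling of the library cancels.

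Many members start head to head with a gene on the other strand. For 30 members a tested gene on the opposite strand starts within 1000 bases, in 29 pairs. The members of these pairs had a median log2 fold change of 0.48, with 27 above 0. Mrpl46 and Mrps11 on chromosome 7 are each other's partner, their starts overlap by 412 bases and both were higher. The partners in the other 28 pairs are not members and had a median of -0.03, with 13 of 28 above 0, 2 higher (Tcp1 and Ndufb5) and 1 lower (Gga3). Of all genes tested, 49.2% were above 0, 6.99% higher and 7.69% lower, with a median of -0.01, so the partners stood near the background. In these pairs the member had the larger log2 fold change in 24 of 28 pairs. Since members were higher in general, this count is not a test of shared starts. Mrpl47 was among the reverse cases, at 0.01 beside 0.54 for Ndufb5, a respiratory chain subunit gene. Mrpl47 shares 24.2% of its exon bases with Actl6a and Ndufb5 on the other strand, so reads of these genes may be mixed.

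Promoter sequences were read for the members from RefSeq (build GRCm38.p6), as windows from 250 bases before to 50 bases after each annotated start. They were found for 69 of the 78 members, in 75 windows, and Mrpl4, Mrpl13, Mrpl15, Mrpl19, Mrpl38, Mrpl54, Mrps28, Mrps34 and Mrps35 had none. Searched on both strands, the core of ETS factors such as GABP, CCGGAAG, was in 34.7% of member windows and 8.86% of all 32851 windows (11.6% of those of protein-coding genes). The NRF1 core GCATGCG was in 10.7% against 3.58% (coding 4.44%), the YY1 core ATGGCGG in 17.3% against 4.05% (coding 5.24%), and the E-box CACGTG, which MYC and MAX bind, in 9.33% against 7.15% (coding 7.84%). For the E-box, 3 overlapping windows of Mrpl2 hold the same copy, and counted by gene it was in 5 of 69 members (7.25%) against 8.09% of all genes with a window. None of these motifs contains another, but copies of a motif on opposite strands can share bases, as those of GCATGCG do. Only CCGGAAG went with a larger median. The 26 members with CCGGAAG had a median log2 fold change of 0.52 against 0.42 for the 43 without. Medians were 0.25 against 0.46 for GCATGCG (8 members with it, 61 without) and 0.28 against 0.46 for CACGTG (5 and 64). For ATGGCGG they were 0.26 against 0.47 (13 and 56). Mrpl53, counted as holding CCGGAAG and ATGGCGG, had no fold change. The groups are small and these differences were not tested. A match describes letters and not a bound site.

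The 250 bases before the RefSeq start of 5 members are shown because they cover the range of the results. In GENCODE M21, 24 bases of the Mrpl12 window, 12 of that of Mrpl17 and 3 of that of Mrpl22 lie in exons of the gene itself. Mrpl17 (chr7:105811088-105811337, minus strand) had the largest increase and holds CCGGAAG and GCATGCG, the second next to the start. Mrpl52 (chr14:54426659-54426908, plus strand) also rose and holds the ETS core on the reverse strand. Mrpl20 (chr4:155802628-155802877, plus strand) rose and holds an E-box. Mrpl12 (chr11:120484387-120484636, plus strand), with the highest level per kilobase, holds none of the 4 motifs. Mrpl22 (chr11:58171414-58171663, plus strand) holds both the ETS and the NRF1 core and had a log2 fold change of -0.05. Each is written 5′ to 3′ on the strand of its gene, and capitals mark the motifs, on either strand.
Mrpl17: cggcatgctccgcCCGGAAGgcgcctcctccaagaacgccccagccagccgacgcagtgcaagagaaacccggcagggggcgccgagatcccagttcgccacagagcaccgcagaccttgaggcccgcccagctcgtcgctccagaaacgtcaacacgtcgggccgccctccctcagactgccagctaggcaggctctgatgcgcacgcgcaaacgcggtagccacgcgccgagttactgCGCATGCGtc
Mrpl52: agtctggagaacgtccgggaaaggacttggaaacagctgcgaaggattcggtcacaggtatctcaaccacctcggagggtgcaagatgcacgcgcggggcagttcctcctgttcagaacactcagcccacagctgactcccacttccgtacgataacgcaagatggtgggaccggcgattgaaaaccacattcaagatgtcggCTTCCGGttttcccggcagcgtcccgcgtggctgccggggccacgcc
Mrpl20: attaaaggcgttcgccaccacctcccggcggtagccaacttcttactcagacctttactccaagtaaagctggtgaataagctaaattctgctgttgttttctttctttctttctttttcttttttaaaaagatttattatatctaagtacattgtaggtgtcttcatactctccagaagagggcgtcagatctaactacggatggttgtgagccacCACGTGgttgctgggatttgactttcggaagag
Mrpl12: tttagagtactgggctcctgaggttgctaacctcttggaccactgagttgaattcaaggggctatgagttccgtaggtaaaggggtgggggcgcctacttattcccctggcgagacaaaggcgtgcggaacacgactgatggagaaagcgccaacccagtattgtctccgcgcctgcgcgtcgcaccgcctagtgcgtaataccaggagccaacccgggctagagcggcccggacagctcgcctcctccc
Mrpl22: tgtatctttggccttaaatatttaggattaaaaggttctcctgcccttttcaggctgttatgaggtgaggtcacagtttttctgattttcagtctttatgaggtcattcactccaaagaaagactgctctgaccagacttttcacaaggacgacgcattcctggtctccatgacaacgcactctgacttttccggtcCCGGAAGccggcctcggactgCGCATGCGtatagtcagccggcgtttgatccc
Mrpl17 and Mrpl22 thus share 2 of the 4 motifs, both with the NRF1 core near the start, at log2 fold changes of 1.35 and -0.05.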

How the data were processed

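RNA of 3 Myc_Utx and 3 Myc_p53 mouse liver tumour cell lines was sequenced. The deposited values are raw counts for each Ensembl gene, with no normalization, beside a transcript length in bases. The submitters' processing notes name Trimmomatic 0.36, STAR 2.5.3a, featureCounts 1.6.3, DESeq2 1.20.0 and GRCm38; the study's methods name a human build and HTSeq. The library strand setting is not given in the sources used here, so reads of genes that overlap on opposite strands may be mixed. Coordinates equal those of GENCODE M21 for 96% of genes.

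The genotypes were compared with edgeR 4.0.16 in R 4.3.3, using filterByExpr (minimum count 10), TMM and the quasi-likelihood F test with genotype as its only term. P-values were adjusted over all genes tested by Benjamini-Hochberg. Standard errors were taken from the F statistic. CPM are scaled by TMM. Single values per line were compared with two-sided exact permutation tests (scipy 1.17.1). The study calls the lines independent, and the mouse of each is not given in the sources used here. Alternatives were no filter, at least 10 counts in every line, DESeq2 size factors, total counts only, DESeq2 1.42.0, offsets for transcript length (splines with 5 degrees of freedom, MASS 7.3.60.0.1), another threshold and each line left out. Offsets for principal isoform length and for chromosome, and leaving out members whose exons overlap other genes by 10% or more, were added after seeing the data.

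The members and the gene lists were chosen with earlier results of these data known. Values per line are given for the 8 members with the largest and the 8 with the lowest log2 fold change, the 5 highest and 5 lowest per kilobase, the shortest and longest transcript, Mrps18a, Mrps30, Mrps36 and Mrpl53; of the pathway lists, for genes past the threshold and the 5 ribosome genes outside the symbol series. Of those lists, 2 genes were not found by symbol or not tested. The level of the gene targeted in Myc_p53 lines is not reported here. Simulated data were run through the procedure as a check. No rate of false calls is given for data with a length trend fitted without length offsets, as in the main fit.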

Additional observations from a re-analysis of the deposited data

How the results depend on the processing

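No paired analysis was possible because line names 2A, 2B and 2D have no counterpart among 1, 2 and 3. The number of members higher at an adjusted p under 0.05, 17 in edgeR, was 11 with total counts only (5.22% of all genes), 10 with transcript length offsets (6%), 9 with principal isoform length offsets (5.59%), 28 with the DESeq2 test (11%), 44 at an unadjusted p (16.6%) and 4 with a 2-fold change as well (2.32%), against 6.99% in edgeR, and ranged from 0 to 14 with a line left out. For the pathway lists, 3 in edgeR, it ranged from 0 to 3 with a line left out. Principal isoform length offsets gave a median log2 fold change of 0.26 for all members, 0.27 for Mrpl and 0.25 for Mrps genes, and rho with length became 0.43 with transcript length offsets. The cause was not tested. No member was lower under any alternative run, and with no filter the median of all genes was -0.23.

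Genes near 0 changed sign. With no filter Mrpl1 was 0.0038. Mrpl47 was -0.0393 with at least 10 counts in every line, -0.0141 with DESeq2 size factors, -0.0605 with total counts only and -0.0136 with DESeq2, and Mrpl55 was -0.0171 with total counts only. With length offsets Chchd1 was -0.177, Dap3 0.0361, Mrpl1 0.0038, Mrpl2 -0.0898, Mrpl55 -0.233 and Mrps5 0.0907. With those fitted without the members they were -0.169, 0.0394, 0.0059, -0.0826, -0.226 and 0.0941. With principal isoform length they were -0.22, 0.0823, 0.041, -0.0995, -0.244 and 0.107, and Mrps18a was -0.189. With chromosome offsets Dap3 was 0.166, Mrpl1 0.0505, Mrpl22 0.0097, Mrpl24 0.0225, Mrpl49 0.069 and Mrps5 0.166. With a line left out the ranges were -0.0872 to 0.0763 for Mrpl1, -0.159 to 0.167 for Mrpl22, -0.446 to 0.0022 for Mrpl24, -0.109 to 0.141 for Mrpl47, -0.0784 to 0.0343 for Mrpl49, -0.0855 to 0.18 for Mrpl55, -0.21 to 0.106 for Mrps18b, -0.093 to 0.0158 for Mrps5, -0.187 to 0.0477 for Dap3 and -0.0487 to 0.277 for Ptcd3. Counted once for each gene and setting, 68 of the other results for named genes lost and 8 gained their call, and 416 did neither. Many of these genes had no call in the main fit to lose, so the 416 do not measure how stable the calls are.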
